A study of Homo sapiens with 11 samples.

Results

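This account covers 9 genes of serine protease control, which are SERPINB1, SERPINB2, SERPINB3, SERPINB4, SERPINB5, SERPINB8, SERPINE2, PLAU and PLAUR. They were chosen by name, with earlier results of the same arrays in view, out of 20249 named genes on the array. All 10 of their probes were taken, 2 for PLAU and 1 for each of the others. Of the 9, 7 are serpins, and PLAU and PLAUR are not inhibitors but the protease urokinase and its cell surface receptor, so the set is described by its genes and not as a list of inhibitors.

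The RNA came from A549 and HCC827, which are established lines of human lung adenocarcinoma, measured in 1 colour on 11 oligonucleotide arrays. Each line was made to express wild-type TRIM58, a ubiquitin ligase of the tripartite motif family (TRIM58-WT), or carried the empty retroviral vector pMXs-Neo (mock), and all cells were selected in G418. There were 3 mock and 3 TRIM58-WT replicates of A549 and 2 of each kind of HCC827, and A549 mock arrays 1-1 and 1-2, both labelled as control cell 1, were averaged to 1 replicate. Per the study, A549 transfectants were isolated as clones after infection and HCC827 ones were used uncloned, and the labels number the cells without saying whether these are separate clones or cultures. A p-value therefore measures the spread between these samples, which may be technical or clonal.

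Serpins inhibit proteases by a suicide mechanism, in which the protease cleaves a loop of the serpin and is trapped in a covalent complex. Clade B serpins lack a classical signal peptide and act largely inside the cell or at its border, and most of their genes lie in clusters on chromosomes 6 and 18. SERPINB3 and SERPINB4 are the squamous cell carcinoma antigens, SERPINB5 is maspin, and SERPINE2 is protease nexin 1, a secreted inhibitor of thrombin and urokinase. PLAU cuts plasminogen to plasmin at the cell surface, where PLAUR holds it, and SERPINB2 is among the inhibitors of that step.

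The sequences before the starts of SERPINB3 and SERPINB4 are shown because these neighbouring genes gave nearly the same pattern on all arrays, and that of SERPINB5 because its probe shared the A549 part of it. Each line holds the 250 bases before the annotated start, 5′ to 3′ on the strand of the gene, from RefSeq on GRCh38.p14. In the first and second line, capitals mark the bases at which SERPINB3 and SERPINB4 differ. In the third line, capitals mark CpG dinucleotides.
SERPINB3: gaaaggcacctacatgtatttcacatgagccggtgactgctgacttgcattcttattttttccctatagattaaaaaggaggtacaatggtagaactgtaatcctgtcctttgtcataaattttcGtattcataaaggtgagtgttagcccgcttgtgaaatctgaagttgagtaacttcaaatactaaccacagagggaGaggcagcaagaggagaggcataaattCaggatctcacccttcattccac
SERPINB4: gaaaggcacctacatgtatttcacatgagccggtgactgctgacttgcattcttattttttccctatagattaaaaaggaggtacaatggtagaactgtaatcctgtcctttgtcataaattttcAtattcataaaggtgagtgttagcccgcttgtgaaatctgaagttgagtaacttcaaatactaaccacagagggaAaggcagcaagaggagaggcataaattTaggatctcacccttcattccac
SERPINB5: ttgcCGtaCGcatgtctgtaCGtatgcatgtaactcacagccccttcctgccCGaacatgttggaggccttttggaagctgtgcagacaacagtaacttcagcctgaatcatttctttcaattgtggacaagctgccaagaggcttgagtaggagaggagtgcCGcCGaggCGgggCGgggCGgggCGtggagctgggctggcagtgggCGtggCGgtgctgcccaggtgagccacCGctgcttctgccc

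The SERPINB3 window (chr18:63661894-63662143, minus strand) and the SERPINB4 window (chr18:63644257-63644506, minus strand) were identical at 247 of 250 letters, or 98.8%. They held 3 and 2 CpG dinucleotides, and the SERPINB5 window (chr18:63476708-63476957, plus strand) held 13, beside a median of 11 over 35116 such windows of all genes. SERPINB3 and SERPINB4 are close paralogs, so a probe for one may bind RNA of the other. The probe sequences were not analysed here, and their signals are uncertain as measures of either gene alone.

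The letters TGANTCA, with any letter at N, read the same on both strands and stood in 6.57% of all these windows. Only with G or C at N are they the core bound by AP-1 factors. Among the 11 windows of the members, TGANTCA stood in those of SERPINB2, SERPINB5, SERPINB8 and PLAUR. The matches of SERPINB2 and SERPINB5 had the letter A in the middle, and SERPINB8 had a match with A and another with G. The matches of SERPINB8 and PLAUR with the letter G in the middle are shown with 10 bases on each side and the match in capitals, since both genes are described below.
SERPINB8 (chr18:63970043-63970069, plus strand): cgaacggttcTGAGTCAtctgccggaa
PLAUR (chr19:43670339-43670365, minus strand): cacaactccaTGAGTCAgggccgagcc
These are matches of letters only, and no binding was measured. The share of all windows with G or C at N was not counted. The members were chosen by name, so nothing is read from how many of their windows held a match.

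All values below are levels on the log2 scale, the processed signal of a probe relative to the 75th percentile of its array, so that 0 is the signal of a probe at that percentile. A probe was well above background, or detected, where the scanner software marked it so. The 75th percentile itself was 60.3, 62.5 and 56.6 signal units on A549 mock replicate 3 and TRIM58-WT replicates 2 and 3. On the other 8 arrays it was between 90.5 and 125. Beyond the other zero point and normalizations tried, its part in the results was not tested. At least 40.1% of probes were detected on each array. The probe of TRIM58 was not detected on any array labelled TRIM58-WT and was detected on only 1 array in all, A549 mock replicate 3, at a level of -0.71. Where that probe lies relative to the coding sequence in the vector was not analysed here, so it does not check the labels. The array labelled A549 mock replicate 3 also stood towards the TRIM58-WT arrays for several genes below, such as MRC2, KRT6A and SERPINB5, and whether its label is right was not tested. Every A549 mock mean includes it unless stated. Because that replicate stood apart for several members too, their A549 values are given with and without it. With the array median as the zero point instead, the A549 differences shifted by -0.37 on the log2 scale and the HCC827 differences by 0.03.

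**Figure D1:**
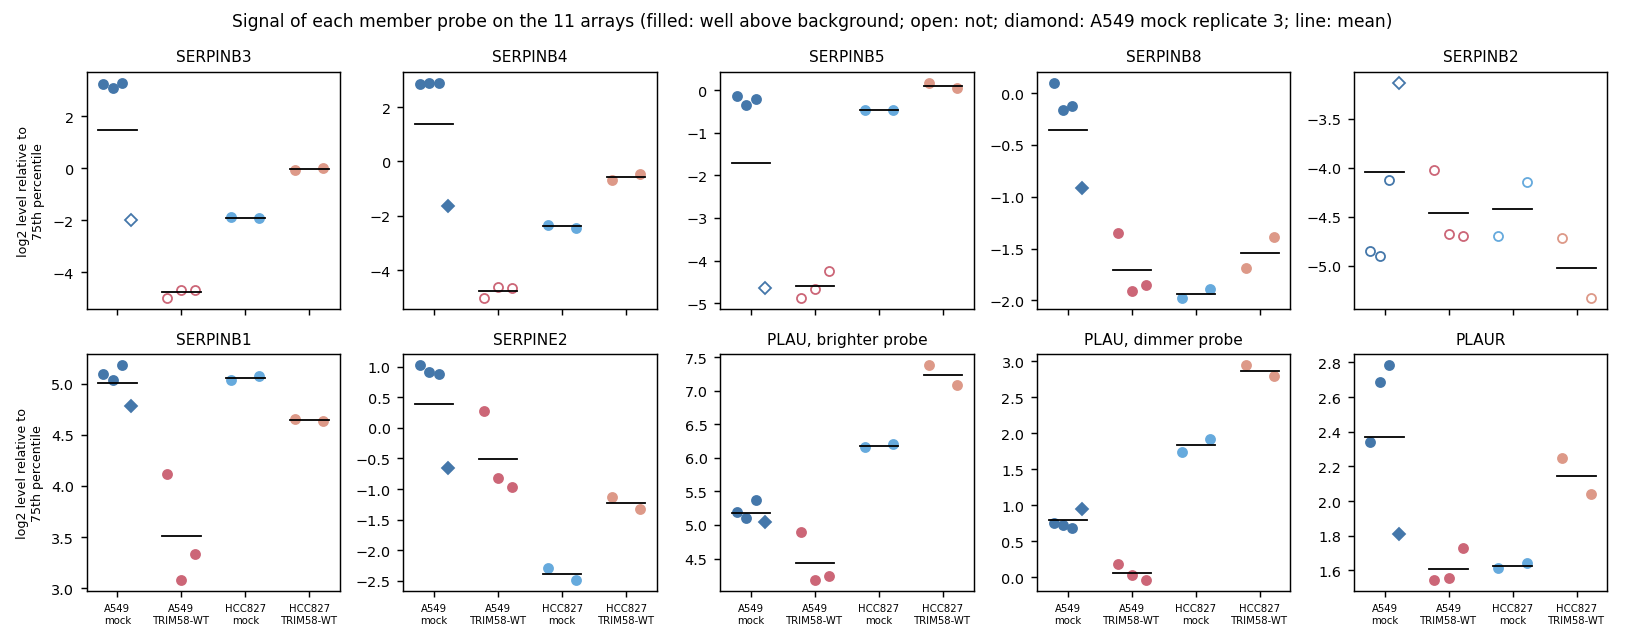
Levels of the 10 member probes (y axes, log2 relative to the 75th percentile of the array, each panel with its own scale) on each array, by group (x axes). Filled points were well above background, diamonds are A549 mock replicate 3, and lines are means of the replicates. SERPINB3, SERPINB4 and SERPINB5 were bright on 3 of the 4 A549 mock arrays and undetected on all 3 A549 TRIM58-WT arrays.

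The largest separation lay in SERPINB3 and SERPINB4, inhibitors of lysosomal cysteine proteases and of chymotrypsin-like serine proteases. In A549 mock, the SERPINB3 probe stood at 3.24 and 3.11 on arrays 1-1 and 1-2 and at 3.29 in replicate 2, but at -1.98 and undetected in replicate 3. In A549 TRIM58-WT it stood at -4.99, -4.67 and -4.67, undetected on all 3. It was detected on all HCC827 arrays, where mock stood at -1.87 and -1.91 and TRIM58-WT at -0.07 and 0.00. The order of the group means was therefore opposite in the 2 lines, with mock above TRIM58-WT in A549 and TRIM58-WT above mock in HCC827. The HCC827 groups did not overlap. In A549, mock replicate 3 and all TRIM58-WT arrays were undetected, so the order among them is not known.

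The SERPINB4 probe followed the same course, at 2.84, 2.88, 2.89 and -1.62 on the 4 A549 mock arrays, all detected, and at -5.02, -4.63 and -4.64 in A549 TRIM58-WT, all undetected. In HCC827 it stood at -2.32 and -2.44 in mock and at -0.68 and -0.46 in TRIM58-WT, detected throughout. As the dim A549 group gives only a bound, the A549 mean was at least 16.0-fold lower in TRIM58-WT for SERPINB4 and at least 17.4-fold lower for SERPINB3. Without mock replicate 3 these bounds were 45.3-fold and 58.1-fold. These bounds set the mean of the brighter group against the higher of the dim signal and the lowest detected signal of each array. On A549 mock replicate 3, SERPINB3 was undetected at -1.98 while LYPD3 was detected at -2.23. An undetected probe can thus lie above the lowest detected signal, so these and later folds given as at least are bounds under this rule only. The SERPINB3 mock mean also takes its undetected replicate 3 signal as it stands. In HCC827 the means of SERPINB3 and SERPINB4 were 3.63-fold and 3.51-fold higher in TRIM58-WT, log2 differences of 1.86 ± 0.13 and 1.81 ± 0.15 (standard error, n = 2 in each group).

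Across the 10 replicates, SERPINB4 was the gene whose levels followed those of SERPINB3 most closely among 12812 genes (Pearson r = 0.996), and within A549 their r was 0.999 over 6 replicates. These values describe the same arrays that chose the genes, and both probes may report shared sequence.

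SERPINB5, whose product maspin is an atypical serpin without a known protease target, kept the A549 pattern at a lower level. It stood at -0.14, -0.34 and -0.21 on the A549 mock arrays 1-1, 1-2 and 2 and was undetected in replicate 3 (-4.64) and in TRIM58-WT (-4.88, -4.66 and -4.25). The A549 groups thus overlapped through replicate 3 alone. The bound on its A549 difference was at least 1.91-fold lower in TRIM58-WT with all replicates and at least 5.29-fold without mock replicate 3. In HCC827 it was detected on every array, at -0.46 and -0.47 in mock and at 0.17 and 0.05 in TRIM58-WT, a log2 difference of 0.57 ± 0.13.

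SERPINB8, an inhibitor of the proprotein convertase furin, was detected on every array. Its levels in A549 mock were 0.10, -0.16, -0.12 and -0.91, and those in A549 TRIM58-WT were -1.35, -1.91 and -1.85. The groups did not overlap, and the log2 difference was -1.35 ± 0.30, which is 2.55-fold lower. HCC827 mock stood at -1.98 and -1.89 and HCC827 TRIM58-WT at -1.69 and -1.39, a log2 difference of 0.40 ± 0.16. The A549 TRIM58-WT mean (-1.70 ± 0.31, SD, n = 3) lay between those of HCC827 mock (-1.94 ± 0.058, n = 2) and HCC827 TRIM58-WT (-1.54 ± 0.21, n = 2), and did not differ from either beyond their spread.

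SERPINB1, an inhibitor of neutrophil elastase, cathepsin G and proteinase 3 that lies in the chromosome 6 cluster, was the detected member for which the TRIM58-WT means were lower in both lines. It stood at 5.09, 5.03, 5.18 and 4.79 in A549 mock and at 4.12, 3.08 and 3.33 in A549 TRIM58-WT. The log2 difference was -1.50 ± 0.30, a 2.83-fold lower mean. HCC827 mock stood at 5.04 and 5.07 and HCC827 TRIM58-WT at 4.65 and 4.64, a log2 difference of -0.41 ± 0.13. The mock means of both lines, 5.01 ± 0.20 and 5.05 ± 0.025, differed by less than the spread between the A549 replicates.

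SERPINB2, the plasminogen activator inhibitor 2 of monocytes and placenta, was not well above background on any of the 11 arrays. Its levels ran from -5.33 to -3.13, so no fold or order is given, and absence of the transcript is not shown by this.

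SERPINE2, the secreted member of clade E, was detected on every array, at 1.03, 0.91, 0.88 and -0.65 in A549 mock and at 0.27, -0.82 and -0.96 in A549 TRIM58-WT. The A549 groups overlapped because mock replicate 3 (-0.65) lay below TRIM58-WT replicate 1 (0.27). The A549 log2 difference was -0.90 ± 0.53. HCC827 mock stood at -2.30 and -2.49 and HCC827 TRIM58-WT at -1.12 and -1.32, 2.25-fold higher (log2 difference of 1.17 ± 0.16). A549 mock exceeded HCC827 mock 6.93-fold, a log2 difference of 2.79 ± 0.53.

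PLAU, the urokinase protease itself, had 2 probes that gave the same directions. The brighter stood at 5.19, 5.10, 5.37 and 5.04 in A549 mock and at 4.89, 4.18 and 4.23 in A549 TRIM58-WT. In HCC827 it stood at 6.16 and 6.20 in mock and at 7.38 and 7.09 in TRIM58-WT. The groups did not overlap in either line. The log2 differences were -0.75 ± 0.24 in A549 and 1.05 ± 0.16 in HCC827, and for the dimmer probe -0.73 ± 0.16 and 1.03 ± 0.15. The dimmer probe ran from 0.68 to 0.95 in A549 mock and from -0.04 to 0.19 in A549 TRIM58-WT, and it showed no drop in mock replicate 3.

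PLAUR, the receptor that keeps urokinase at the cell surface, stood at 2.34, 2.69, 2.78 and 1.81 in A549 mock and at 1.54, 1.55 and 1.73 in A549 TRIM58-WT. The log2 difference was -0.76 ± 0.27, and the groups were closest at mock replicate 3. In HCC827 it stood at 1.61 and 1.64 in mock and at 2.25 and 2.04 in TRIM58-WT, a log2 difference of 0.52 ± 0.14. The A549 TRIM58-WT and HCC827 mock means, 1.61 ± 0.11 and 1.63 ± 0.021, differed by less than their spread.

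SERPINB2 apart, which was undetected throughout and has no direction, the A549 means of the other 8 members were lower in TRIM58-WT, as bounds only for SERPINB3, SERPINB4 and SERPINB5. In HCC827, where these 8 were detected on every array, 7 were higher in TRIM58-WT and SERPINB1 was lower, with log2 differences from -0.41 to 1.86. Over the members tested, the median log2 difference was -1.13 in A549 (6 members) and 0.81 in HCC827 (8 members), and over all genes tested it was 0.03 and 0.01. SERPINB4 passed the A549 filter only through mock, where it was detected on every array. The members were chosen with these results known, and no share of all genes by direction is given here. Nothing is therefore read from these directions or medians.

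**Figure D2:**
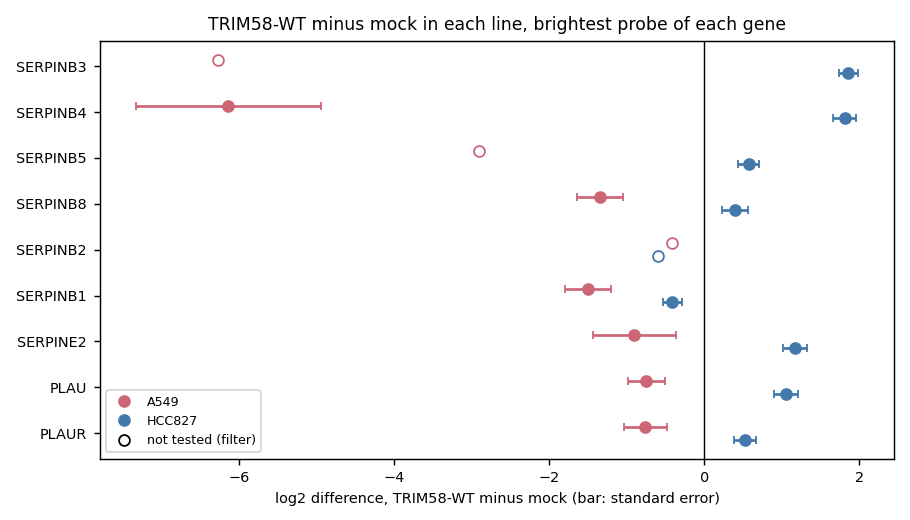
Log2 differences, TRIM58-WT minus mock, for the brightest probe of each member (rows) in A549 and in HCC827 (x axis, log2), with standard errors from the fit as bars. Open points did not pass the filter on dim probes and have no error. Of the 8 genes other than SERPINB2, which was undetected on every array, all lie below 0 in A549 and 7 above 0 in HCC827. The A549 points of SERPINB3, SERPINB4 and SERPINB5 rest on undetected TRIM58-WT signals.

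A difference was called at a Benjamini-Hochberg adjusted p under 0.05, over all probes tested with limma, and a change of at least 2-fold. In A549, 6 members were tested and 3 were called, SERPINB1, SERPINB4 and SERPINB8, all lower. Over all 11185 genes tested 7.93% were called and 4.06% were called lower. SERPINB3 and SERPINB5 were not tested, because replicate 3 left neither detected on every array of a group, and SERPINB2 was not tested in any comparison. In HCC827, 8 members were tested and SERPINB3 and SERPINB4 were called higher, beside 1.07% of 12182 genes called and 0.328% called higher. The groups did not overlap for 5 of 6 tested members in A549 and for 8 of 8 in HCC827, where that held for 33.9% and 59.1% of all genes tested. Since the members were chosen with these results known, nothing is read from their counts.

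The difference between the lines in the TRIM58-WT change was called, at an adjusted p under 0.05 over all probes, for SERPINB4 and PLAU among 8 members tested, beside 4.61% of all genes. The A549 change minus the HCC827 change was -1.80 ± 0.34 for the brighter PLAU probe and -1.77 ± 0.23 for the dimmer. Within A549 or HCC827 alone, neither PLAU probe was called. For SERPINB4 the fitted value was -7.95 ± 1.66, whose size is not exact because the A549 TRIM58-WT signals were undetected. SERPINB3, with the same limit, was not called. In the mock cells, SERPINB4, SERPINB8 and SERPINE2 were called higher in A549 than in HCC827 among 8 members tested, beside 31.9% of all genes called. The brighter PLAU probe was just short of the 2-fold limit there, lower in A549, and the dimmer one just past it (log2 difference of -1.04 ± 0.16). These comparisons share arrays, so these counts are not separate evidence.

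The A549 differences depended on the arrays used. Without mock replicate 3, the log2 difference was -1.63 for SERPINB8, -1.61 for SERPINB1, -1.43 for SERPINE2, -1.04 for PLAUR and -0.82 for the brighter PLAU probe, and the bounds of SERPINB3, SERPINB4 and SERPINB5 were those given above. With that array left out of the filter as well, 6 of 8 tested members were called in A549, namely PLAUR, SERPINB1, SERPINB3, SERPINB4, SERPINB5 and SERPINB8, an alternative chosen after the data were seen. Leaving out mock replicate 1, mock replicate 2 or TRIM58-WT replicate 2 or 3 instead left 0 members called by limma, with 3 or 4 at an unadjusted p under 0.05. The TRIM58-WT mean minus mock replicate 3 alone was -1.28 for SERPINB1, -0.79 for SERPINB8 and 0.15 for SERPINE2 on the log2 scale. It was -0.20 for PLAUR, -0.61 for the brighter PLAU probe and -0.89 for the dimmer. All of these were detected on these arrays. SERPINB3 and SERPINB5 were undetected both on that array and in TRIM58-WT, so their order there is not known. TRIM58-WT replicate 1 also stood apart from replicates 2 and 3. It lay nearer the mock mean than they did for SERPINB1, SERPINB8, SERPINE2 and both PLAU probes, but not for PLAUR.

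The A549 arrays lay on 2 slides. On slide 1, TRIM58-WT replicate 1 stood against mock arrays 1-1 and 2, and on slide 2, TRIM58-WT replicates 2 and 3 stood against mock array 1-2 and replicate 3. The arrays with the lowest 75th percentiles, mock replicate 3 and TRIM58-WT replicates 2 and 3, thus all lay on slide 2. Mock array 1-2, on that slide too, had a 75th percentile of 103 signal units. Among members detected on every array, the log2 differences within slide 1 and slide 2 were -1.34 and -1.34 for SERPINB8, -1.02 and -1.70 for SERPINB1, and -0.68 and -1.02 for SERPINE2. They were -0.39 and -0.86 for the brighter PLAU probe and -1.02 and -0.61 for PLAUR. Slide 1 holds 1 TRIM58-WT array, and arrays 1-1 and 1-2 of the same mock replicate lie on different slides, so the slides are not independent repeats. All 4 HCC827 arrays lay on slide 1.

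**Figure D3:**
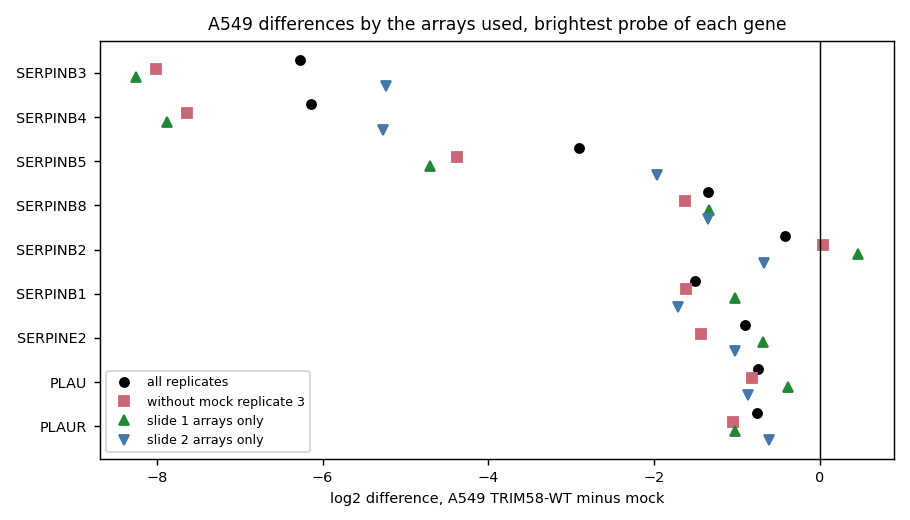
Log2 differences, A549 TRIM58-WT minus mock (x axis), for the brightest probe of each member (rows) from all replicates, without mock replicate 3, and from the arrays of each slide alone. Points of SERPINB3, SERPINB4 and SERPINB5 use TRIM58-WT signals that were undetected and have no exact size, and SERPINB2 was undetected throughout. The other 5 genes lie below 0 in every setting.

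Of the members, 5 lie in the chromosome 18 cluster, in the order SERPINB5, SERPINB4, SERPINB3, SERPINB2 and SERPINB8, with SERPINB12 and SERPINB13 between the first and second and SERPINB11, SERPINB7, SERPINB10 and HMSD further along. SERPINB12 and SERPINB13, which lie between SERPINB5 and SERPINB4, were not detected on any array. SERPINB7 was detected on 3 A549 mock arrays only, at -0.57 on array 1-1, and its A549 group means were -1.77 and -4.26, at least 1.81-fold lower in TRIM58-WT. Like SERPINB5 it was undetected in mock replicate 3, at -4.06. HMSD, a serpin-like minor histocompatibility gene, was 3.27-fold lower in A549 TRIM58-WT (log2 difference of -1.71 ± 0.23, adjusted p = 0.0105 by limma), a size that is not exact since it was detected on 1 of 3 TRIM58-WT arrays, and it was undetected in HCC827. Its 4 mock arrays, replicate 3 included, lay between -0.97 and -0.66, above all 3 TRIM58-WT arrays.

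Beside the cluster, on the SERPINB5 side, VPS4B and KDSR were tested in A549 and not called by limma (adjusted p = 0.565 and 0.0733). They had A549 mock means of 1.97 and 1.00 and TRIM58-WT means of 1.81 and 0.40. On the other side, CDH19 was detected on 3 of 4 A549 mock arrays and on 0 of 3 TRIM58-WT arrays, and was not tested. Its A549 group means were -2.22 and -3.73, at least 1.32-fold lower in TRIM58-WT. CDH7 and DSEL, on that side too, were undetected in A549. In the chromosome 6 cluster SERPINB6, an inhibitor of cathepsin G found in many tissues, stood at 5.10 ± 0.12 in A549 mock and 5.15 ± 0.10 in TRIM58-WT (n = 3 each), a difference smaller than the spread between replicates. SERPINB9, the inhibitor of granzyme B, was detected on all A549 arrays, with means of 1.99 and 1.35 (adjusted p = 0.193), and on no HCC827 array. SERPINB1 was the only clade B serpin of chromosome 6 called in A549 among the 3 tested there.

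**Figure D4:**
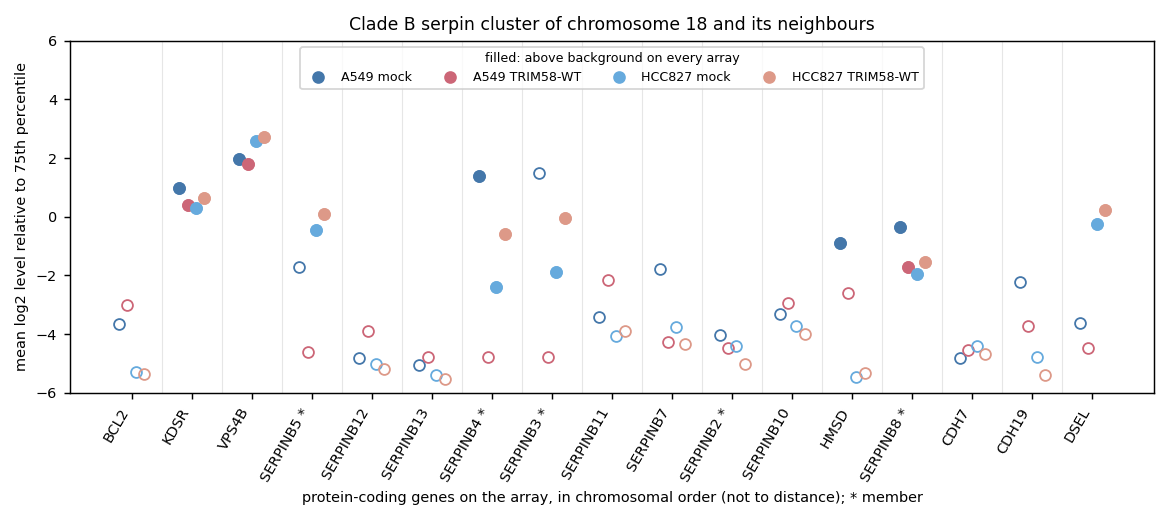
Mean log2 level relative to the 75th percentile (y axis) in the 4 groups for protein-coding genes of the chromosome 18 serpin cluster and its flanks, in chromosomal order (x axis, not to distance). Filled points were detected on every array of the group, and members carry a star. SERPINB12 and SERPINB13, between SERPINB5 and SERPINB4, were undetected in every group.

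Of 29 other serpins on the array, 5 were tested in A549, and 1 was called higher and 0 lower, beside 3.87% and 4.06% of all genes. Their median log2 difference was 0.05, beside 0.03 over all genes. The gene called was SERPINH1, a collagen chaperone of the endoplasmic reticulum that inhibits no known protease. It stood at 4.31 ± 0.24 in mock and 5.57 ± 0.26 in TRIM58-WT (n = 3, log2 difference of 1.26 ± 0.21, adjusted p = 0.0202 by limma). With the array median as the zero point it was not called (log2 difference of 0.89, adjusted p = 0.277 by limma). In HCC827, 7 other serpins were tested and limma called 0, beside 1.07% of all genes, with 4 at an unadjusted p under 0.05. The methods' t-test called 0 of them and 0 of all 12182 genes tested in HCC827, so its 0 says nothing about this list. In mock cells 4 were called higher and 1 lower in A549 than in HCC827, beside 15.4% and 16.5% of all genes. SERPINB9 was at least 37.3-fold higher in A549 mock, SERPINB6 5.31-fold, SERPINH1 4.83-fold and SERPINA3 2.48-fold, and SERPINA1, the main inhibitor of neutrophil elastase in plasma, was 6.81-fold lower.

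Of 21 genes of plasminogen activation, 13 were tested in A549, with a median log2 difference of -0.09. Beside 3.87% and 4.06% of all genes, 1 was called higher and 1 lower. These were MRC2, the urokinase receptor associated protein that takes up collagen, and LYPD3, a relative of PLAUR. MRC2 stood at 1.25, 1.01, 1.12 and 4.23 in A549 mock and at 6.15, 5.61 and 5.86 in TRIM58-WT, a log2 difference of 3.72 ± 0.84 (adjusted p = 0.0446). In HCC827 it went the other way, from 4.38 and 3.97 in mock to 1.38 and 1.63 in TRIM58-WT (log2 difference of -2.67 ± 0.20, adjusted p = 0.034), and the difference between the lines was called (6.39 ± 1.17, adjusted p = 0.0239). LYPD3 was detected on all 4 A549 mock arrays, lowest in replicate 3 at -2.23, and on no other array, so that it was at least 3.85-fold lower in A549 TRIM58-WT (adjusted p = 0.033). In HCC827, 11 were tested and MRC2 alone was called, beside 1.07% of all genes. PLAT, the tissue activator of plasminogen, was not called in either line, with log2 differences of 0.53 ± 0.32 in A549 (adjusted p = 0.371) and -0.31 ± 0.17 in HCC827 (adjusted p = 0.366), and PLG, plasminogen itself, was undetected on every array. In mock cells 13 were tested, and VTN, LYPD3, F12 and VLDLR were called higher in A549 than in HCC827 and ST14, the membrane protease matriptase, lower by 16.7-fold. Over all genes 15.4% were called higher there and 16.5% lower.

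Of 15 proteases that member serpins inhibit, 14 were on the array, 4 were tested in A549 and 1 was called, PRSS3, a trypsin, with a mean of 2.76 ± 1.04 in mock and 0.01 ± 0.67 in TRIM58-WT (n = 3, log2 difference of -2.75 ± 0.58, adjusted p = 0.0376 by limma). Over all genes tested in A549, 7.93% were called. In HCC827, 6 were tested and limma called 0, beside 1.07% of all genes, with 2 at an unadjusted p under 0.05. The methods' t-test called 0 of these and 0 of all 12182 genes tested in HCC827, so its 0 says nothing about this list. ELANE, PRTN3, CTSG and CMA1, proteases of neutrophils and mast cells, were not detected on any A549 mock array, and elsewhere ELANE and PRTN3 were each detected on 1 A549 TRIM58-WT array and ELANE on 1 HCC827 mock array. In mock cells CTSL was called higher and CTSV and PRSS8 lower in A549 than in HCC827, of 6 tested, beside 31.9% of all genes called.

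Of 20 protease inhibitors outside the serpin family, 19 were on the array and 10 were tested in A549, with 3 called lower and 0 higher and a median log2 difference of -1.31. Over all genes 4.06% were called lower and 3.87% higher, and the median was 0.03. SPINT2, an inhibitor of membrane serine proteases, stood at 7.26 ± 0.56 in A549 mock and 4.76 ± 0.14 in TRIM58-WT (n = 3, log2 difference of -2.50 ± 0.30, adjusted p = 0.00717). SLPI, the secretory leukocyte protease inhibitor, stood at 4.98 ± 0.91 and 1.06 ± 1.24 (n = 3, -3.92 ± 0.71, adjusted p = 0.0252), and it was lowest among mock in replicate 3, at 3.93. TFPI2, an inhibitor of plasmin and tissue factor, was lower in TRIM58-WT in both lines, by a log2 difference of -1.74 ± 0.40 in A549 (adjusted p = 0.0475) and -1.50 ± 0.14 in HCC827 (adjusted p = 0.0421). TFPI2 was the only one of 14 inhibitors tested in HCC827 that was called, beside 1.07% of all genes. For SPINT2 the difference between the lines was called (-2.75 ± 0.41, adjusted p = 0.0112). In mock cells 15 were tested, with 6 called higher in A549 (SPINK6, PI3, TFPI2, SLPI, RECK and CST3) and 4 lower (CST6, SPINT1, SPINK5 and WFDC2). Over all genes these shares were 15.4% and 16.5%.

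**Figure D5:**
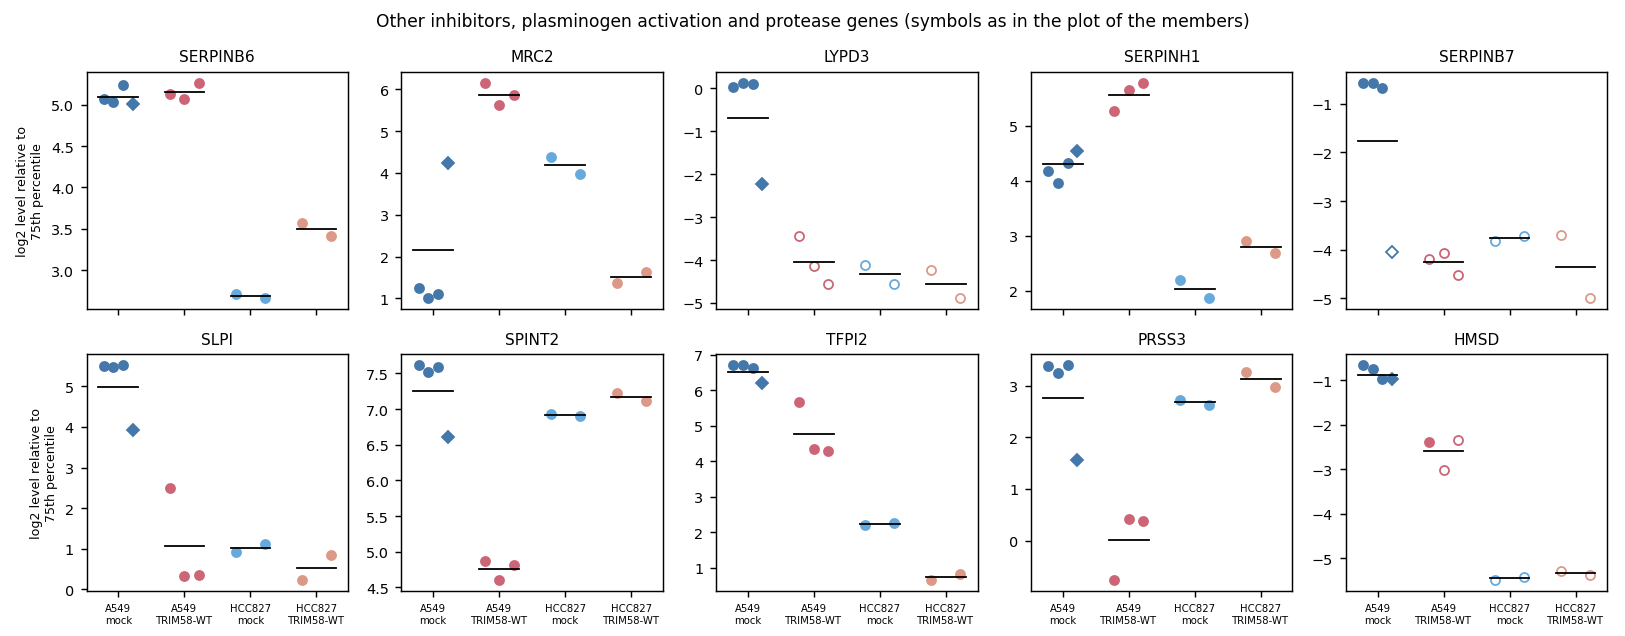
Log2 levels relative to the 75th percentile (y axes, each panel with its own scale) on each array, by group (x axes), for 10 genes of the other lists, with filled points detected, diamonds A549 mock replicate 3, and lines means of replicates. Group means of MRC2 and SERPINH1 were higher in A549 TRIM58-WT, those of SERPINB6 were 5.10 and 5.15 with overlapping arrays and those of the other 7 were lower, and mock replicate 3 of MRC2, at 4.23, lay between the remaining mock arrays and TRIM58-WT.

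The genes whose levels most resembled those of each member over the 10 replicates, among 12812 genes detected on every array of at least 1 group, were as follows. After SERPINB4, those nearest SERPINB3 were AGGF1 (r = 0.976) and CCN3 (r = 0.975), and after SERPINB3 those nearest SERPINB4 were MIER3 (r = 0.976) and SDCBP2 (r = 0.974). SERPINB5 was followed most closely by ALOX5 (r = 0.994) and by the cornified envelope genes SPRR2A (r = 0.992) and SPRR2C (r = 0.989). SERPINB8 was nearest to FCGBP (r = 0.986), TTC17 (r = 0.979) and CXCL5 (r = 0.974). SERPINB1 was nearest to HSD3B7 (r = 0.984), ANKRD20A5P (r = 0.981) and KIF13B (r = 0.973), and SERPINE2 to MAU2 (r = 0.983), ALDH2 (r = 0.981) and VPS36 (r = 0.980). PLAU was nearest to DCAF7, CDCP1 and SLC9A3-OT1 (r = 0.993, 0.993 and 0.990) and PLAUR to CYBA, IL22RA1 and PSME3 (r = 0.947, 0.946 and 0.937). With 10 replicates in 4 groups these correlations rest largely on the group means, and they are given as a description.

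Markers of squamous epithelium, where SERPINB3, SERPINB4 and SERPINB5 are abundant in the body, were mostly dim. Of 12 such markers, 7 were undetected on all A549 mock arrays and 8 on all A549 TRIM58-WT arrays, with TP63, KRT5 and DSG3 undetected in A549 mock. Their summed level ran from 2.11 to 4.87 in A549 mock and from 1.16 to 1.38 in A549 TRIM58-WT. KRT6A was the brightest of them in A549 mock (mean of 3.34), so the higher sums there rest largely on that gene. KRT6A ran from 0.99 in replicate 3 to 4.63 in the mock replicates and was at least 62.8-fold lower in TRIM58-WT (limma, adjusted p = 0.0088), and SPRR3 was detected on 3 A549 mock arrays and on none of TRIM58-WT. SPRR1A, the other marker tested in A549, had means of 0.21 and 0.25 (adjusted p = 0.944), and TP63, IVL and KRT13 were each detected on 1 A549 TRIM58-WT array and on no A549 mock array. In HCC827 the summed level ran from 2.62 to 2.63 in mock and from 2.34 to 2.44 in TRIM58-WT, where SERPINB3 and SERPINB4 were higher. Their part in the member differences was not tested, and in RNA of whole cultures fewer cells of a kind and less RNA per cell cannot be told apart.

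Of 11 markers of lung adenocarcinoma epithelium, 6 were tested in A549 and 3 were called lower, beside 4.06% of all genes. KRT7, KRT18 and CDH1 were not called (adjusted p = 0.724, 0.133 and 0.0716), and KRT19, EPCAM and KRT8 were called lower in A549 TRIM58-WT, KRT19 by at least 723-fold (adjusted p = 0.000151), and EPCAM by a fitted log2 difference of -4.88 ± 0.68 (adjusted p = 0.0117) with 1 of 3 TRIM58-WT arrays detected. In HCC827, 8 such markers were tested and limma called 0, beside 1.07% of all genes, with 4 at an unadjusted p under 0.05. The methods' t-test called 0 of these markers and 0 of all 12182 genes tested in HCC827, so its 0 says nothing about them. NKX2-1 and NAPSA were detected on every HCC827 array, and NKX2-1 on no A549 array. Of 7 myeloid markers on the array, 4 were undetected on all arrays of each A549 group, and of 8 fibroblast markers 6 were undetected in A549 mock and 7 in A549 TRIM58-WT. SPI1, ITGAM and MPO were undetected throughout. In HCC827, 4 of the 7 myeloid markers (PTPRC, CD14, CD68 and CSF1R) were detected on every mock array. Their summed level, over all 7, ran from 3.26 to 3.33 in HCC827 mock and from 3.52 to 3.71 in HCC827 TRIM58-WT. Summed myeloid levels ran from 2.02 to 2.38 in A549 mock and from 1.01 to 1.12 in A549 TRIM58-WT, where CD14 was called lower, and summed fibroblast levels from 0.56 to 1.13 and from 0.87 to 1.04.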

How the data were processed

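RNA of 11 samples of A549 and HCC827 transfectants was hybridised to 1-colour Agilent 8 x 60k arrays. The deposited intensity values are the authors' processed signals per spot, background-subtracted by Agilent Feature Extraction 11.5.1.1 per the file headers (the submitters' processing notes name 10.7), with no scaling across arrays. A log2 value table deposited beside them served only as an alternative. Its differences across arrays are those of log2 processed signal minus the 75th percentile, with a baseline taken from each probe (95.5% of values within 0.01), and how that baseline was set is not given in the sources used here. Its array medians ran from -0.12 to 0.46.

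With R 4.3.3 and limma 3.58.1, control and outlier spots were left out, the spots of a probe were averaged, log2 was taken and the 75th percentile over 42405 probes of each array was subtracted. Precision is limited by how many arrays there were. Of these probes 27241 were named through a RefSeq accession and the GRCh38.p14 table. A probe counted as detected where over 0.5 of its spots were marked so. Those detected throughout a group, in 1 or more of the groups compared, were fitted with lmFit and eBayes, each line by itself, and all 4 groups together for the difference between the lines and for mock. Where a gene had several probes the brightest over the 11 arrays stood for it. Groups came from the labels alone. The fits were tested on simulated data.

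Genes named were all members, the called genes of each list (up to 8), PLAT, PLG, SERPINB6, SERPINB7, SERPINB9, SERPINB13, TRIM58, and the 3 genes most correlated with each tested member. Values of other genes, among them genes beside the chromosome 18 cluster and single markers, were added after they were seen. The members and lists were chosen with earlier results of these data known, and no p-value is given for a member. Alternatives were other normalizations, background corrections, filters, blocks, the methods' t-test and leaving out replicates. Protein sequences were not used here, and 1 gene of the lists is not reported here and was left out of their counts.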

Additional observations from a re-analysis of the deposited data

Results flagged for a closer look

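The TRIM58-WT change was compared between the lines by the linear contrast of the 4 groups in limma. Outside the marker lists it differed, at an adjusted p under 0.05, for 5 genes of the members and lists. Over all genes tested this held for 4.61%. The A549 change minus the HCC827 change was -7.95 on the log2 scale for SERPINB4, -1.80 for PLAU, -1.84 for HMSD, 6.39 for MRC2 and -2.75 for SPINT2. HMSD was undetected on all HCC827 arrays, so its HCC827 part compares undetected values, and SERPINB4 was undetected on all A549 TRIM58-WT arrays, so the size of its value is not exact. For SERPINB4 and PLAU the changes had opposite signs in the 2 lines, and these genes were chosen with that known. Neither PLAU probe was called in A549 or in HCC827 by itself. Under 11 alternative settings 0 members were called for this difference, with 5 to 8 at an unadjusted p under 0.05. Among the markers, the same contrast was called for KRT19, EPCAM and KRT8 of 8 lung adenocarcinoma markers tested. It was also called for KRT6A of 4 squamous markers and CD14 of 4 myeloid markers tested. In each of these markers the A549 change lay below the HCC827 change.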

How the results depend on the processing

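Counts of called members were 3 in A549, 2 in HCC827, 2 for the difference between the lines and 3 between the mock cells, and called lists held 1 other serpin and 2 plasminogen activation genes in A549. In that order of results, normexp background gave 1, 0, 0 and, for the lists, 1 and 1. With no filter the counts were 0, 0, 0 and, for the lists, 0 and 1. A filter on every array gave 4 in HCC827, 1 for the difference, and 1 and 1 for the lists. The median shift gave 0 other serpins. The methods' t-test gave 0 in A549, 0 in HCC827, and 0 and 0 for the lists. Over all genes it called 21 of 11185 in A549 and 0 of 12182 in HCC827, so a 0 from it says little. Averaging A549 TRIM58-WT replicates 2 and 3 gave 0, 0 and 0 in A549 and the lists. Fitting the lines together gave 0 in HCC827. Slide as a block gave 5 for the difference, and the 4 mock arrays kept separate gave 4 for the difference and 5 between the mock cells. Where limma or the t-test called 0, the genes at an unadjusted p under 0.05 numbered 2 to 7 of the members in A549, 1 to 7 in HCC827, 5 to 8 for the difference, 1 to 5 other serpins and 1 to 3 plasminogen genes.

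Replicate numbers are shared by label only. Same-numbered A549 samples deviated from their group means with correlations of 0.50, -0.42 and 0.50 and the HCC827 samples with 0.08, so the numbers were not taken as pairs. With the replicate block the counts were 3 in A549, 0 in HCC827, 0 for the difference, 1 other serpin and 1 plasminogen gene.

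Leaving out 1 replicate at a time gave 0 to 4 members in A549, 0 to 2 in HCC827, 0 to 7 for the difference, 2 to 5 between the mock cells, 0 to 1 other serpin and 0 to 2 plasminogen genes. The 7 came without A549 mock replicate 3. With that array also out of the filter, a choice made after seeing the data, the counts were 6 in A549, 7 for the difference, 5 between the mock cells and 2 other serpins. The causes were not tested. Of 532 members' differences under alternatives, 39 moved by more than the spread between replicates and 0 of the called ones changed sign.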
